A study of Mus musculus with 9 samples.

Results

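The genes for the subunits of the oxidative phosphorylation system, the chain of complexes I to V in the inner mitochondrial membrane, were followed in osteocyte-like cells that shared a medium with chondrocytes. Members were taken by gene symbol from the protein-coding rows of the count table: the Nduf subunits of complex I, Sdha to Sdhd of complex II, the Uqcr genes and Cyc1 of complex III, the Cox4 to Cox8 genes of complex IV, the Atp5 genes of complex V and all protein genes of mitochondrial DNA. Ndufa4l2 was left out by the rule. This gave 102 of 56748 rows, 89 in the nuclear genome and 13 in the mitochondrial genome, and 94 of them had enough counts to be tested. The table uses older symbols for complex V, so that Atp5a1 stands for the alpha subunit, Atp5b for the beta subunit and Atp5g1, Atp5g2 and Atp5g3 for the genes of subunit c. The symbol Atp5o stands on 2 rows, 1 of which had no counts.

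The cells were MLO-Y4, an immortalized osteocyte-like mouse line, and RNA was measured by sequencing in 9 libraries, 3 per group. All 3 groups shared a transwell, whose porous insert lets soluble factors pass, with primary articular chondrocytes from C57BL/6J mice 5 to 6 days old. In the control group the chondrocytes were not stimulated, whereas in the other groups they had first received interleukin-1β (10 ng/ml, 6 h) and then shared the medium for 24 h or 48 h. The labels give no culture time for the control group, so that stimulation and time in culture cannot be told apart in a comparison with control. The 48 h samples carry the line names MLO-Y5, MLO-Y6 and MLO-Y7, whereas the protocols name MLO-Y4 throughout. No label says that replicates came from separate cultures, and p-values then measure only the spread between these libraries, which may be technical.

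Total counts per library ranged from 12250628 to 18515456. Among markers of the labelled cell type, Sost, Mepe and Fgf23, which mature osteocytes secrete, had at most 3 counts in every library. Gja1, the gap junction protein of osteocytes, and Col1a1, the main collagen of bone, averaged 1498 and 1273 CPM (counts scaled to a common library size of 1e+06) in the control group. Of 14 chondrocyte markers, 5 had at most 3 counts in every library, among them Acan and Col9a1, and the summed level of the list was 1684 to 1719 CPM in control, 1568 to 1651 CPM at 24 h and 2131 to 2220 CPM at 48 h, most of it from Prg4. Of 5 leukocyte markers, Ptprc, Itgam and Adgre1 had at most 3 counts in every library. The list summed to 12.84 to 14.57 CPM in control, 19.4 to 22.22 CPM at 24 h and 15.43 to 17.24 CPM at 48 h. Cd14, the only leukocyte marker tested, rose at 24 h and at 48 h (log2 fold changes 0.62 and 0.27). Its 48 h call was lost without control replicate 2 and without 48 h replicate 2 or 3. Of the 6 chondrocyte markers tested at 48 h, 4 rose and 1, Matn3, fell. The summed level of the osteocyte and osteoblast markers was 4558 to 4771 CPM in control, 4663 to 4786 CPM at 24 h and 5435 to 5515 CPM at 48 h. These markers did not move together. Of the 9 tested at 48 h, 3 rose and 3 fell, with log2 fold changes from -0.59 to 0.69, where 22% of all tested genes rose and 24.4% fell. The part of these marker levels in the values of the members was not tested.

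In oxidative phosphorylation, complexes I and II pass electrons from NADH and succinate to coenzyme Q, complex III passes them to cytochrome c, and complex IV hands them to oxygen. Complexes I, III and IV pump protons out of the matrix as they do so, and complex V, the ATP synthase, uses the returning protons to make ATP. Most subunits are encoded in the nucleus and imported, whereas a small core is encoded in mitochondrial DNA, so that both genomes contribute to complexes I, III, IV and V but not to complex II. Osteocytes lie in mineralized matrix, where oxygen is low compared with many other tissues.

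The promoters of members are shown first, because nuclear members changed largely in 1 direction at 48 h. RefSeq promoters (mouse build GRCm38.p6, 250 bases before to 50 bases after the start) matched 71 of 89 nuclear members by gene identifier or symbol, with 75 promoters in all. Members without a match, among them Cyc1 and Uqcrq, which fell at 48 h, are missing from the shares below. Both strands were searched for the letters GCATGCG, found in sites of NRF1, an activator of respiratory genes, for CCGGAAG, found in sites of ETS factors such as GABP, for AAGATGG, found in YY1 sites, and for ACGTG, the core of sites of the hypoxia-inducible factors. The NRF1 letters were in 14.7% of member promoters and in 3.58% of all 32851 promoters. The set of all promoters was not limited to genes expressed in these cells, nor matched to the members in base content. The ETS letters were in 22.7% of member promoters and in 8.86% of all. For the YY1 letters the shares were 14.7% and 6.34%, and for the ACGTG core they were 25.3% and 19.6%. Among promoters of the members that fell at 48 h, 13.6% held the NRF1 letters and 22.7% the ETS letters, against 17.9% and 25% for tested members that did not fall. The YY1 letters were in 18.2% of the former and 10.7% of the latter, and the ACGTG core in 20.5% and 32.1%. These shares are of 44 and 28 promoters and rest on few of them, such as 8 and 3 with the YY1 letters. Differences between them were not tested. A match of letters is a description and does not show a bound factor.

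The promoters of 4 members are printed, each as the 250 bases before the start, 5′ to 3′ along the gene, with matched letters in capitals. Atp5g1, with the largest fall, lies on the minus strand at chr11:96075632-96075881 and has the ACGTG core at 3 places on either strand, of which a pair overlaps in CACGTG. Sdhb at chr4:140961021-140961270 on the plus strand has the NRF1 letters, and Uqcr11 at chr10:80406822-80407071 on the minus strand has the ETS letters and the ACGTG core. Cox7a2l at chr17:83514334-83514583 on the minus strand, which rose, has none of the letters in this stretch.
Atp5g1: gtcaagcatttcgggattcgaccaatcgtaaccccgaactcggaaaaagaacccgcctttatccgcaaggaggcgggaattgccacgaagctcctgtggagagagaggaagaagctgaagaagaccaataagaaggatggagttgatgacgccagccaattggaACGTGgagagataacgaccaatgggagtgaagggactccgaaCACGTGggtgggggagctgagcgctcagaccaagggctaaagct
Sdhb: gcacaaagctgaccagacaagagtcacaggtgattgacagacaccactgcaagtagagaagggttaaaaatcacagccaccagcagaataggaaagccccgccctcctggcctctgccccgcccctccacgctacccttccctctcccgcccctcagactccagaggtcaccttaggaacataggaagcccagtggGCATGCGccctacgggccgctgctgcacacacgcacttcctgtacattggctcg
Uqcr11: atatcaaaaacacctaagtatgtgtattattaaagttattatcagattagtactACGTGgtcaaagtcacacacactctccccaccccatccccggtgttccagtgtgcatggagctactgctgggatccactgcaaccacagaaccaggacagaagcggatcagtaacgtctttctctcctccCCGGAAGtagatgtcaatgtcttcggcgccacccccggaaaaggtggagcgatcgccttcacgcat
Cox7a2l: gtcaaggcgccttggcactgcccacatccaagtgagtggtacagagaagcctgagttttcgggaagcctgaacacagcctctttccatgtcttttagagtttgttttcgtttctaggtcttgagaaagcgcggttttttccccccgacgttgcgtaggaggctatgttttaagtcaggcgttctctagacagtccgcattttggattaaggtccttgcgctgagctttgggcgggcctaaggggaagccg

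After 24 h of co-culture with stimulated chondrocytes, no member passed the test. All counts were fitted with edgeR's quasi-likelihood test over the 13812 genes tested, and a gene is called at a Benjamini-Hochberg adjusted p under 0.05. At 24 h 0 of 94 members were called, where 6.15% of all tested genes were (3.25% higher and 2.9% lower), and the smallest adjusted p was 0.152, for Ndufa5, an accessory subunit of complex I. An unadjusted p under 0.05 was found for 4 members, 3 with lower values (mt-Nd2, mt-Nd6 and Ndufa5) and 1 with a higher value (mt-Nd4l), against 18.7% of all tested genes, and DESeq2 called 0 members, with no adjusted p given for 1. The median log2 fold change of the members was -0.06, with 75 values below and 19 above 0, beside -0.0042 over all tested genes. Control and 24 h libraries were fully separate for 3 members, Ndufa5, Sdha and Cox6c, all with lower values at 24 h, where 11.2% of all tested genes lay below control and 10.3% above. Without control replicate 3, the fit called 8 members lower at 24 h, and 602 of all 14163 genes tested in it.

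After 48 h, 52 of 94 members fell and 4 rose against control, where 24.4% of all tested genes fell and 22% rose, 46.4% in either direction. The share of members that fell was 55.3% and the share that rose was 4.26%. Falls were small in size, with a median log2 fold change of -0.18 over the 94 members beside -0.0022 over all tested genes, and 78 of 94 values lay below 0. The range went from -0.92 for Atp5g1, a subunit c gene of the ATP synthase, to 0.77 for Cox7a2l, a protein that joins complexes III and IV. All 48 h libraries lay below all control libraries for 49 members, or 52.1%, and above them for 6, where these shares were 27.4% and 25.7% of all tested genes, 53.1% together. Those that rose included Cox7a2l, Ndufv3 and mt-Co1. Without control replicate 2, the number that rose was 8, where 2989 of all 14133 genes tested in that fit rose. In bulk RNA, fewer cells of a type and less RNA per cell cannot be told apart, and CPM express a share of the library, not an amount per cell.

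**Figure D1:**
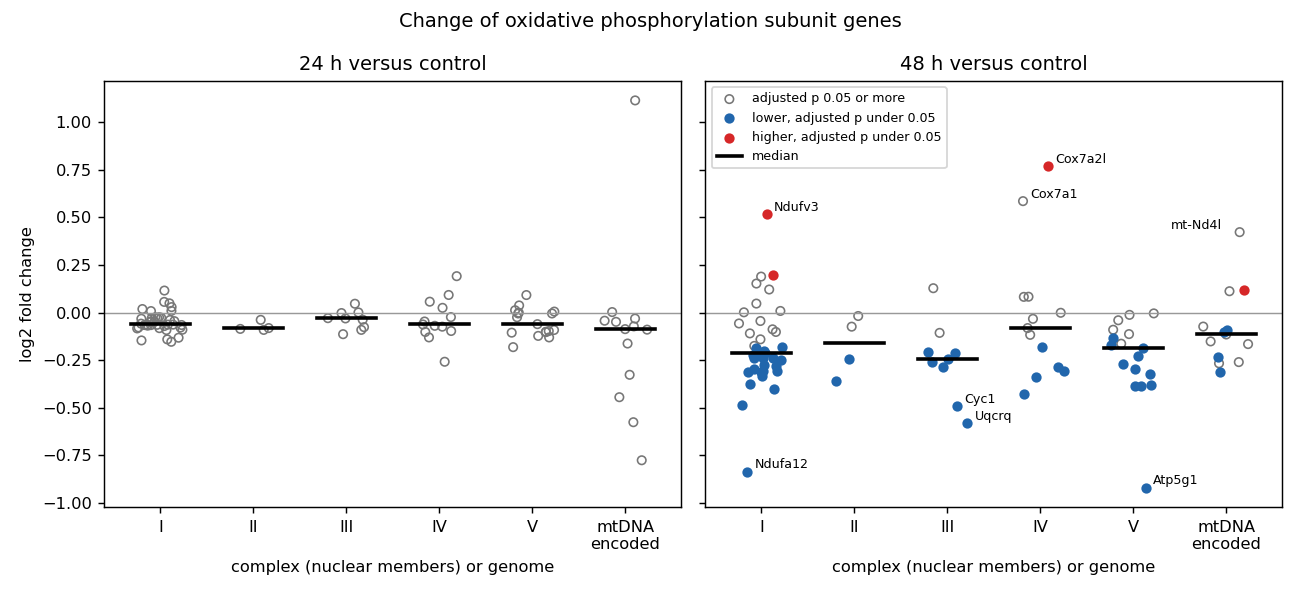
Each point is 1 of the 94 tested members, with the log2 fold change against control on the vertical axis at 24 h (left) and 48 h (right), for nuclear members by complex and for the 13 genes of mitochondrial DNA. Filled points passed an adjusted p under 0.05 and black bars are medians: no point is filled at 24 h, and at 48 h the medians of all 6 columns lie below 0.

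Of 81 tested nuclear members 48 fell and 3 rose at 48 h, with a median log2 fold change of -0.21, whereas of 13 mitochondrially encoded genes 4 fell and 1 rose, with a median of -0.12. All of these mitochondrial calls came from the 7 genes with more than 1000 counts in every library. The others, described below, had 8 to 1025 counts per library and none passed, so that the shares of both genomes are not on equal terms. Members are short and abundant, with a median gene length of 1675 bases among the nuclear members. The 2066 tested genes no longer than that had a median log2 fold change of -0.07 at 48 h, and the 3288 tested genes at least as abundant as the median nuclear member had a median of -0.06. With a trend on gene length removed, the median was -0.20 for the members and -0.05 for all tested genes. Whether length or abundance has a part in the fall was not tested beyond these values.

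Summed levels put the complexes side by side. The nuclear genes of complex V summed to 4348, 4564 and 4155 CPM in the control libraries, to 4175, 4296 and 4363 CPM at 24 h and to 3622, 3624 and 3527 CPM at 48 h. All 48 h sums of complex V lay below all others, at 82.4% ± 1.27 (SD, n = 3) of the control mean. For nuclear complex III the 48 h sum was 82.9% ± 2.02 (SD, n = 3) of the control mean, and it did not overlap the control libraries, which lay between 93.0% and 108%. Nuclear complex I stood at 89.8% ± 2.8 and nuclear complex II at 92.4% ± 2.47 (SD, n = 3) of control at 48 h, both below all control libraries. In contrast, nuclear complex IV stood at 98.7% ± 1.88 (SD, n = 3), inside the control range of 92.7% to 106.6%. This sum follows the gene symbols. It includes Cox7a2l, which rose, and leaves out Ndufa4, which fell and is counted with complex I, so that the value depends on these assignments. The mitochondrially encoded genes of complex IV, nearly all of it mt-Co1, stood at 108.5% ± 2.31 (SD, n = 3) and above every control library, whereas those of complex I stood at 87.5% ± 3.21 (SD, n = 3) and below every control library. At 24 h the means of these sums lay between 94.6% and 98.2% of control. These sums are descriptions with no test.

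**Figure D2:**
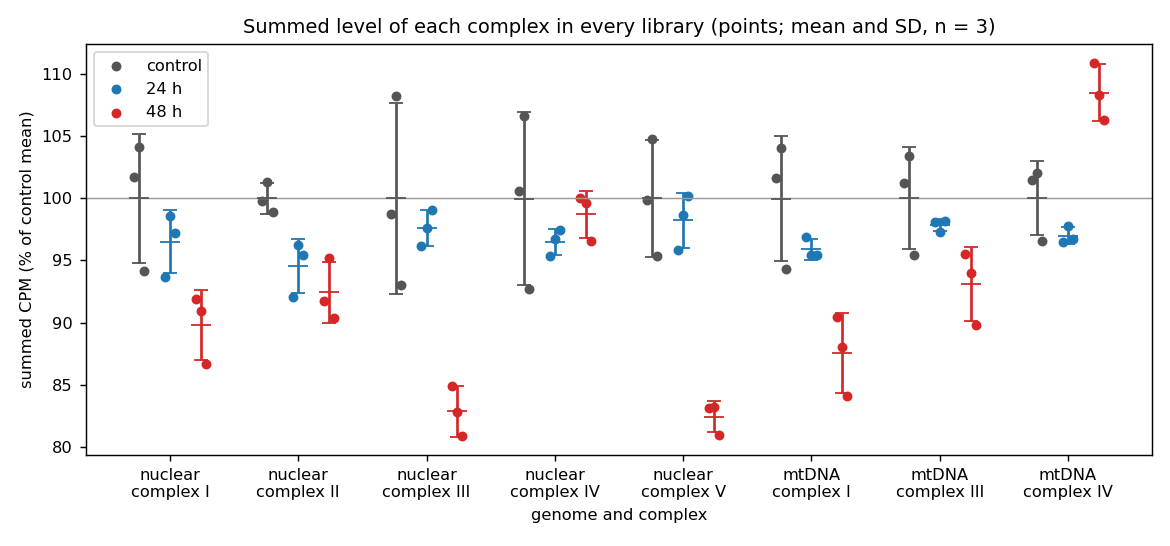
Points are the summed CPM of each complex and genome in each of the 9 libraries, as a percentage of the control mean, and bars are the mean and SD (n = 3). The 48 h points of nuclear complexes III and V lie near 83% and 82%, those of nuclear complex IV near 99%, and those of mitochondrially encoded complex IV near 109%. The mitochondrially encoded complex V genes, which have few counts, are not drawn.

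In complex I, 23 of 38 tested nuclear subunits fell at 48 h and 2 rose, with a median log2 fold change of -0.21. The fallers included parts of the electron path as well as accessory subunits. Ndufs1, the largest iron-sulfur subunit, went from 106, 89.8 and 99.6 CPM in control through 95.5, 97.5 and 89.8 CPM at 24 h to 79.4, 78.5 and 80.8 CPM at 48 h. All 48 h libraries of Ndufs1 lay below the rest, at a log2 change of -0.31 (SE 0.06, adjusted p 0.000496). Ndufv1, which binds NADH and the flavin, fell by 0.21 on the log2 scale (SE 0.06, adjusted p 0.00867), and this call was lost without 48 h replicate 3 (adjusted p 0.0668). Ndufs8, another iron-sulfur subunit, fell by 0.38 (SE 0.09, adjusted p 0.00135). The log2 fold changes of all 23 lay between -0.84 and -0.18.

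Among accessory subunits of complex I, Ndufb6 had 33.6, 36.2 and 32.9 CPM in control, 31.1, 31.6 and 33.6 CPM at 24 h and 25.2, 25.3 and 22.9 CPM at 48 h. The 48 h libraries of Ndufb6 lay below all others, and it fell by 0.48 on the log2 scale (SE 0.07, adjusted p 3.17e-05). Ndufa5 fell by 0.40 (SE 0.06, adjusted p 1.96e-05), with 72.6, 71.4 and 69.4 CPM in control, 62.6, 66.7 and 62.5 CPM at 24 h and 56.6, 53.6 and 51.4 CPM at 48 h. Its 24 h libraries lay between the other groups without overlap, although the 24 h difference did not pass (log2 fold change -0.15, adjusted p 0.152).

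Ndufa12, an accessory subunit on chromosome 10, had the largest fall among the nuclear subunits of complex I and also the largest SE among them. Its values were 65.7, 77.6 and 33.5 CPM in control, 37.2, 79.0 and 67.5 CPM at 24 h and 32.5, 26.2 and 40.0 CPM at 48 h, so that the groups overlapped. The log2 fold change at 48 h was -0.84 (SE 0.25, adjusted p 0.0104), and it lost its call without control replicate 1 (adjusted p 0.0582), without control replicate 2 (0.0565), without 48 h replicate 2 (0.0578) and with DESeq2 (0.0916). A copy of the gene on chromosome 5, Ndufa12-ps, had 0.220 to 1.10 counts per count of Ndufa12 in the control libraries and 0.605 to 1.055 at 48 h. The sum of both was 89.1, 94.7 and 70.2 CPM in control, 72.2, 90.9 and 90.1 CPM at 24 h and 57.2, 53.8 and 64.3 CPM at 48 h, where all 48 h libraries lay below all others. Counts of the single genes are uncertain, since reads of a near-identical copy can be split.

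Ndufv3 rose against the direction of its complex. Ndufv3, a small accessory subunit next to the NADH site (chromosome 17, 31739089 to 31750305, GRCm39), had 45.6, 49.1 and 46.2 CPM in control, 46.9, 46.6 and 50.1 CPM at 24 h and 71.2, 65.6 and 64.5 CPM at 48 h. Control and 24 h libraries of Ndufv3 were mixed and all 48 h libraries stood above them (log2 fold change 0.52, SE 0.06, adjusted p 2.28e-06).

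The tested nuclear subunits of complex I that did not pass at 48 h had log2 fold changes between -0.18 for Ndufb3 and 0.19 for Ndufa13. Ndufa13, which also has a role in cell death, stood at 73.5, 70.3 and 56.6 CPM in control, 60.2, 58.1 and 63.1 CPM at 24 h and 73.1, 81.3 and 74.6 CPM at 48 h. It overlapped between 48 h and control, with an adjusted p of 0.0587. It was called higher under 8 of the 18 alternatives, among them those without control replicate 1 (0.0146), without control replicate 2 (0.0259) and with DESeq2 (0.0449), and it was higher at 48 h than at 24 h (log2 fold change 0.34, adjusted p 0.00178). Ndufb11b had no counts in any library, which allows up to 3 counts, or 0.16 to 0.245 CPM per library.

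Complex II, succinate dehydrogenase, split by subunit. Sdhb, the iron-sulfur subunit, had 72.8, 77.6 and 81.1 CPM in control, 69.3, 77.0 and 71.5 CPM at 24 h and 58.5, 65.0 and 56.6 CPM at 48 h. All 48 h values of Sdhb lay under all others, at a log2 change of -0.36 (SE 0.07, adjusted p 0.000215). Sdhd, a membrane anchor, fell by 0.24 (SE 0.06, adjusted p 0.00384). Sdha, the flavin subunit that oxidizes succinate, averaged 217 ± 5.26, 204 ± 3.04 and 215 ± 3.1 CPM (SD, n = 3) in control, at 24 h and at 48 h. The 48 h difference of Sdha was -0.02 on the log2 scale (SE 0.05, adjusted p 0.776), and that of Sdhc, the other anchor, was -0.07 (adjusted p 0.297).

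In complex III, 7 of 9 tested nuclear subunits fell at 48 h and none rose, with a median log2 fold change of -0.24. Uqcrq, a small subunit beside cytochrome b, had 106, 119 and 98.8 CPM in control, 103, 103 and 111 CPM at 24 h and 70.4, 72.2 and 74.0 CPM at 48 h. Its 48 h libraries lay far under the rest, and the log2 fold change was -0.58 (SE 0.07, adjusted p 8.21e-07). Cyc1, the heme protein cytochrome c1 that reduces cytochrome c, had 170.5, 199.8 and 161 CPM in control, 178, 178 and 193 CPM at 24 h and 127, 128 and 122 CPM at 48 h. Control libraries of Cyc1 varied more than those of the other groups and still lay above all 48 h libraries (log2 fold change -0.49, SE 0.07, adjusted p 8.83e-06).

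The core protein Uqcrc1 fell by 0.29 (SE 0.06, adjusted p 0.00111), and Uqcr11, a small subunit with the ETS letters shown above, fell by 0.26 (SE 0.06, adjusted p 0.000936). Uqcrb, Uqcrc2 and Uqcr10 fell by 0.24, 0.21 and 0.21. The Rieske iron-sulfur protein Uqcrfs1 did not pass (log2 fold change -0.11, SE 0.08, adjusted p 0.282), but was called lower without control replicate 3 (-0.19, adjusted p 0.0223). Uqcrh, the hinge protein that docks cytochrome c, had a log2 change of 0.13 (SE 0.06, adjusted p 0.113).

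Complex IV, cytochrome c oxidase, was mixed. Of 13 tested nuclear members 5 fell and 1 rose, and the median log2 fold change of -0.08 was the nearest to 0 of the complexes. Cox5a, a matrix-side subunit, had 40.9, 42.0 and 27.7 CPM in control, 41.6, 38.9 and 37.6 CPM at 24 h and 27.4, 26.6 and 28.3 CPM at 48 h. Control replicate 3 of Cox5a lay within the 48 h range, so that the groups overlapped, and the log2 fold change was -0.43 (SE 0.11, adjusted p 0.00406). Cox7c and Cox7b, small membrane subunits, fell by 0.31 and 0.28 (adjusted p 0.000161 and 0.000259). In Cox7c, 64.2% of the 150-base windows of the transcript also occur letter for letter elsewhere in the genome, so that its count is uncertain. Cox6b1 fell by 0.18 (adjusted p 0.0127), a call lost without control replicate 1 (0.0751) and without 48 h replicate 3 (0.0777). Cox4i1, the largest nuclear subunit, stood at 301, 313 and 278 CPM in control and 333, 313 and 299 CPM at 48 h, which is a log2 change of 0.08 (SE 0.06, adjusted p 0.252).

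The Cox7a family moved apart within complex IV. Cox7a2, the form of most tissues, had 98.3, 109.6 and 91.8 CPM in control, 95.3, 90.2 and 93.5 CPM at 24 h and 81.1, 78.0 and 77.9 CPM at 48 h, a log2 change of -0.34 (SE 0.06, adjusted p 0.000229). Cox7a2l (chromosome 17, 83809347 to 83824759, GRCm39), the related protein that tethers complex III to complex IV in supercomplexes, had 81.9, 84.3 and 79.5 CPM in control, 79.8, 79.9 and 78.0 CPM at 24 h and 137, 144 and 138 CPM at 48 h. The 48 h libraries of Cox7a2l lay above all others by more than the spread within any group, at a log2 change of 0.77 (SE 0.05, adjusted p 1.21e-09). Counts of Cox7a2l per count of Cox7a2 were 0.833, 0.769 and 0.866 in control, 0.838, 0.885 and 0.834 at 24 h and 1.68, 1.84 and 1.77 at 48 h, a ratio that needs no library scaling. Of the windows of Cox7a2l, 15.5% occur elsewhere in the genome. Cox7a1, the form of striated muscle, had 1.95 to 2.94 CPM in control and 2.63 to 4.06 CPM at 48 h and did not pass (log2 fold change 0.59, adjusted p 0.0514). It passed under 5 of the 18 alternatives, among them those without control replicate 2 (0.0192) and without 48 h replicate 1 (0.0248), and it was higher at 48 h than at 24 h (0.84, adjusted p 0.00716).

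Other isoform families of complex IV stayed with 1 form. Cox6a1 and Cox8a averaged 186 and 159.6 CPM in control and had log2 fold changes of -0.08 and 0.08 at 48 h (adjusted p 0.337 and 0.353), and Cox8a was called higher without control replicate 2 (0.17, adjusted p 0.0304). Cox4i2, the isoform linked to low oxygen, had at most 4 counts in a library, and the tissue-specific forms Cox6a2 and Cox6b2 had at most 2 and 4 counts. Cox7b2, Cox8b and Cox8c had no counts in any library.

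Ndufa4, counted here with complex I by its name but known to sit in complex IV, and its paralog Ndufa4l2 went in opposite directions. Ndufa4 had 192, 196 and 182 CPM in control, 179.6, 186 and 178 CPM at 24 h and 162, 157 and 142 CPM at 48 h, all 48 h libraries below the rest (log2 fold change -0.31, SE 0.06, adjusted p 0.000202). Ndufa4l2, which is induced in low oxygen and is no member, had 1.38, 1.39 and 0.828 CPM in control, 3.34, 2.28 and 3.25 CPM at 24 h and 21.5, 17.7 and 18.2 CPM at 48 h. The groups of Ndufa4l2 did not overlap, and it rose at 24 h (log2 fold change 1.28, SE 0.25, adjusted p 0.00256) and at 48 h (3.98, SE 0.19, adjusted p 1e-11). For each 100 counts of Ndufa4 there were 0.628 ± 0.149, 1.63 ± 0.356 and 12.5 ± 1.04 counts (SD, n = 3) of Ndufa4l2 in control, at 24 h and at 48 h. Ndufa4l2 overlaps Shmt2 by 32 bases on the opposite strand, and Shmt2 fell by 0.72 (adjusted p 1.16e-09).

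In complex V, all 17 tested nuclear members had log2 fold changes below 0 at 48 h, and 11 of them fell, with a median of -0.18. The 6 that did not pass lay between -0.16 for Atp5l and -0.0044 for Atp5g2. Subunit c, which forms the rotating ring in the membrane, is encoded by 3 genes that give the same mature protein. Atp5g1 (chromosome 11, 95959678 to 95966496, GRCm39) had 88.6, 109 and 106 CPM in control, 80.6, 95.7 and 102 CPM at 24 h and 58.0, 47.3 and 54.3 CPM at 48 h. The 48 h libraries of Atp5g1 lay below all others (log2 fold change -0.92, SE 0.09, adjusted p 1.98e-07). Atp5g3 had 216, 235 and 215 CPM in control, 217, 225 and 226 CPM at 24 h and 168, 168 and 173 CPM at 48 h, with no overlap (log2 fold change -0.39, SE 0.05, adjusted p 4.61e-06). Atp5g2, in contrast, averaged 188 ± 11.7 CPM in control and 187 ± 6.06 CPM (SD, n = 3) at 48 h, which is a log2 change of -0.0044 (SE 0.05, adjusted p 0.956). Of their 150-base windows, 52.9% in Atp5g1, 86.4% in Atp5g2 and 0% in Atp5g3 occur elsewhere in the genome, so that the counts of Atp5g1 and Atp5g2 are uncertain to that extent.

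Both large subunits of the catalytic head of complex V fell. Atp5b, the beta subunit that holds the catalytic sites, had 1541, 1626 and 1475 CPM in control, 1520, 1548 and 1571 CPM at 24 h and 1189, 1192 and 1187 CPM at 48 h. The 48 h libraries of Atp5b were nearly equal and below all others, at a log2 change of -0.38 (SE 0.04, adjusted p 2.64e-07). Atp5a1, the alpha subunit, fell by 0.30 (SE 0.04, adjusted p 4.28e-06), from 715 ± 9.14 to 582 ± 5.0 CPM (SD, n = 3). Per kilobase of gene length, Atp5b had 365 CPM in control and was the highest nuclear member, whereas Atp5a1 had 228 CPM. Atp5md and Atp5k, small membrane subunits that help ATP synthases pair, fell by 0.38 and 0.33 (adjusted p 2.76e-05 and 0.00232). Atpif1, the inhibitor of ATP hydrolysis, is no member and had a log2 change of 0.15 (SE 0.07, adjusted p 0.0953), which was called only without control replicate 2 (0.0413).

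**Figure D3:**
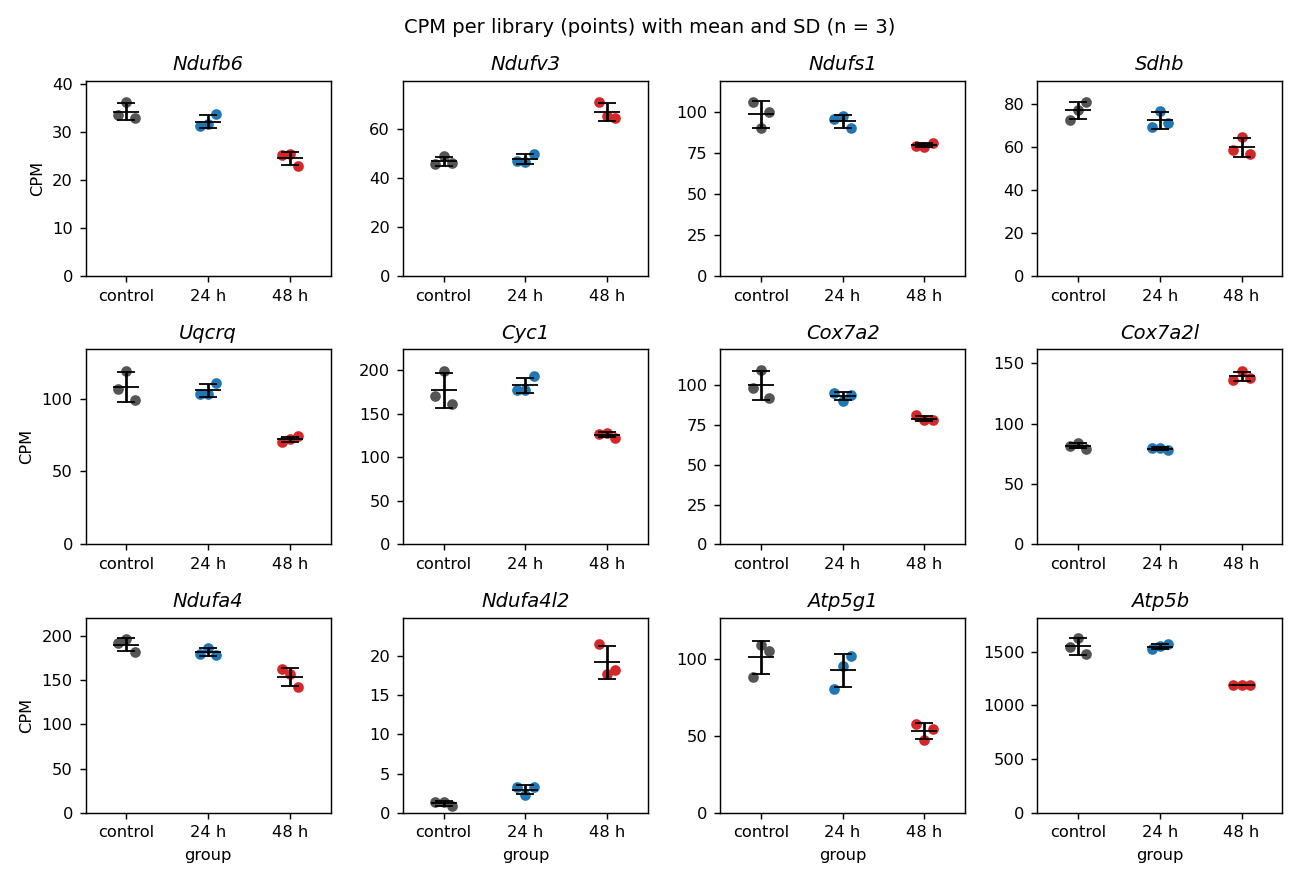
Each panel shows CPM from 0 in the 9 libraries (points) with the mean and SD (n = 3) for 11 members and for Ndufa4l2, which is no member. Control and 24 h overlap in all panels except that of Ndufa4l2, where 24 h lies higher. At 48 h Ndufv3, Cox7a2l and Ndufa4l2 stand above control and the other genes below it.

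Levels of the mitochondrially encoded genes covered a wide range. Per kilobase, mt-Co1 of complex IV (6528 CPM in control) was followed by mt-Cytb of complex III (5109), mt-Nd1 (3324), mt-Nd2 (2574), mt-Nd4 (1437), mt-Nd5 (1314) and mt-Nd6 (1240) of complex I. The other 6 genes lay between 6.13 CPM per kilobase (mt-Nd3) and 72.5 (mt-Co2). Each of these 6 genes lies whole within a stretch of mitochondrial DNA, bases 6390 to 11042, that is also present in the nuclear genome at chr1:24650616-24655269 on the minus strand (GRCm39), with 4651 of 4654 aligned positions identical. Of the genes with high levels, mt-Co1 and mt-Nd4 lie in that stretch with 31.3% and 63.6% of their bases, and the other 5 with none. Counts of the low genes were 8 to 1025 per library, against 7440 to 201019 for the high ones. The sources do not state how reads with several matches were handled, and its part in the low counts was not tested.

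The letters show how alike the places are. The first 120 bases of mt-Atp8 (chrMT:7766-7885) and the nuclear stretch at chr1:24653774-24653893 are the same. The start of mt-Nd3 with the bases before it (chrMT:9401-9521) differs from chr1:24652138-24652258 at 1 base, given in capitals.
mt-Atp8, both places: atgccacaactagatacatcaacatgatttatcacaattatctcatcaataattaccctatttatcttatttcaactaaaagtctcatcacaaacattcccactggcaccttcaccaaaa
mt-Nd3, mitochondrial: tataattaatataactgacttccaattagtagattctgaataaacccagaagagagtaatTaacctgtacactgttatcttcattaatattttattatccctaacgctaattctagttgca
mt-Nd3, nuclear copy: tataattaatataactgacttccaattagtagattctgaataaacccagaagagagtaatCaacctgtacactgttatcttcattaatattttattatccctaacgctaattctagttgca

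Of the 5 abundant mitochondrially encoded genes of complex I, 3 fell at 48 h, mt-Nd1, mt-Nd2 and mt-Nd5, whereas mt-Co1 rose. The mt-Nd2 gene had 2726, 2767 and 2524 CPM in control, 2531, 2479 and 2537 CPM at 24 h and 2233, 2168 and 2063 CPM at 48 h, with all 48 h libraries below the rest (log2 fold change -0.31, SE 0.04, adjusted p 4.12e-06). Its neighbour mt-Nd1 fell by 0.23 (SE 0.04, adjusted p 9.52e-05). In contrast, mt-Co1, the catalytic subunit of complex IV, had 10240, 10270 and 9746 CPM in control, 9736, 9874 and 9758 CPM at 24 h and 11180, 10930 and 10730 CPM at 48 h. Every 48 h library of mt-Co1 lay above every other, at a log2 change of 0.12 (SE 0.03, adjusted p 0.00246). Of each 100 counts of the 7 abundant genes, mt-Co1 took 37.6, 37.2 and 38.1 in control, 37.4, 38.1 and 37.7 at 24 h and 42.0, 42.1 and 42.7 at 48 h, a share that does not depend on scaling between libraries.

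The changes of mt-Nd5 and mt-Cytb, a subunit of complex III, were smaller. They fell by 0.09 (SE 0.03, adjusted p 0.0332) and 0.10 (SE 0.03, adjusted p 0.0192). Both calls were lost when single libraries were left out, with adjusted p up to 0.193 for mt-Nd5 and 0.174 for mt-Cytb, in each case without 48 h replicate 3. The libraries that each ended the mt-Cytb call were control replicates 1 and 2, 24 h replicate 3 and 48 h replicate 3, and for mt-Nd5 they were control replicates 1 and 2, all 24 h replicates, and 48 h replicates 2 and 3. The mt-Nd4 and mt-Nd6 genes had log2 fold changes of -0.12 and -0.15 (adjusted p 0.0524 and 0.0827), and both were called lower without control replicate 3 (adjusted p 0.00151 and 0.00538), mt-Nd4 also without 48 h replicate 1 (0.0381). None of the 6 low genes passed against control at either time. Rows of the chromosome 1 stretch have counts of their own. Gm28438, which overlaps the copy of mt-Nd3, averaged 33.9 CPM in control and fell by 0.72 at 48 h (SE 0.13, adjusted p 0.000136). Gm28437 and Gm10222 fell by 0.31 and 0.54 (adjusted p 0.0118 and 0.0129), whereas Gm28661, Gm10925 and Gm28439 did not pass. Gm29216, a further row of this stretch, is described under other observations. How reads were divided between these rows and the low genes was not tested. Counts of all mitochondrially encoded genes per count of nuclear members were 2.72 ± 0.045 in control, 2.71 ± 0.0623 at 24 h and 3.01 ± 0.0345 at 48 h (SD, n = 3).

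**Figure D4:**
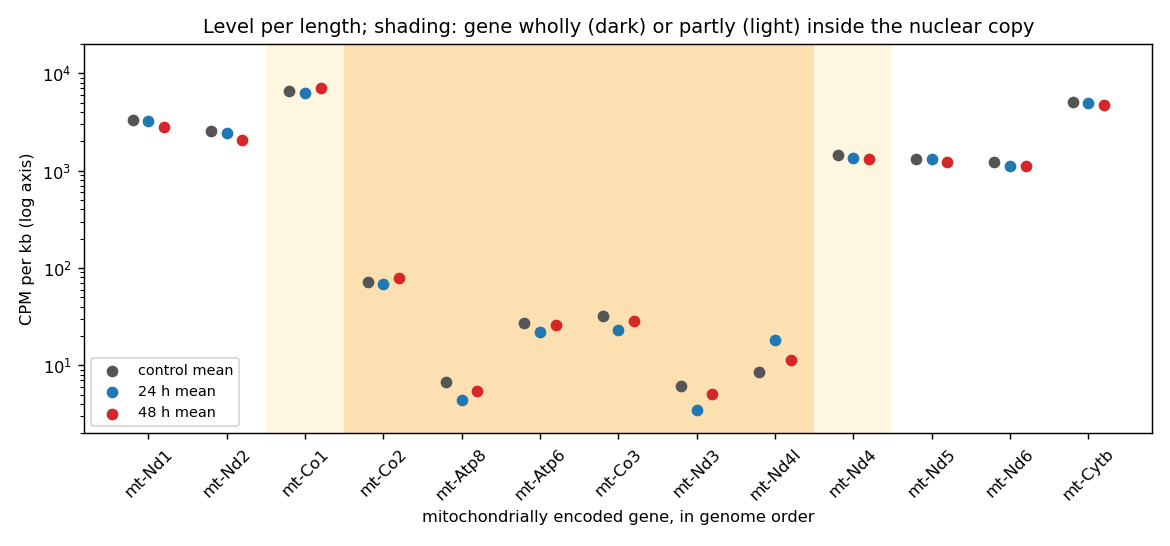
The mean CPM per kilobase of gene length (log axis) of the 13 mitochondrially encoded protein genes is shown in genome order for the 3 groups. Genes inside the stretch that is also present on chromosome 1 are shaded: the 6 wholly inside lie at or below 78.3 CPM per kilobase and the 7 others at or above 1108.

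The comparison of 48 h with 24 h asked how the stimulated times differ, since the control libraries cancel in it. It called 8 members higher and 42 lower, where 23.7% of all tested genes were higher and 25.4% lower, with a median log2 fold change of -0.15. All 48 h libraries lay above all 24 h libraries for 10 members and below them for 50, where the shares of all tested genes were 29.1% and 30.3%, 59.4% together. Among the higher members Cox7a1 differed by 0.84 (SE 0.24, adjusted p 0.00716) and Cox7a2l by 0.81 (SE 0.05, adjusted p 4.78e-10). Among the lower ones the log2 fold change was -0.89 for Ndufa12 (SE 0.25, adjusted p 0.00598), a call lost without 24 h replicate 2 (0.0574) and with DESeq2 (0.0637), and -0.80 for Atp5g1 (SE 0.09, adjusted p 1.04e-06). Uqcrq and Cyc1 followed with -0.55 (SE 0.07, adjusted p 1.37e-06) and -0.54 (SE 0.07, adjusted p 2.58e-06). The comparisons with control share their control libraries and are not independent of each other. The joint test of the 3 groups called 55 of 94 members, where 51.9% of all tested genes were called. Without 48 h replicate 3 it called 34 members, and 6144 of all 14037 genes tested in that fit.

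Genes around the respiratory chain were taken from lists drawn up with earlier results of these data known. At 48 h the assembly factors, which build the complexes, were called lower in 8 of 16 genes for complex I, 1 of 4 for complex II, 3 of 6 for complex III, 7 of 19 for complex IV and 2 of 5 for complex V. These are shares of 50%, 25%, 50%, 36.8% and 40%, where 24.4% of all tested genes were called lower, so that complex II stood at that background. They were called higher in 0 genes except for complex IV, where 3 (15.8%) rose, against 22% of all tested genes. Examples are Ndufaf4, a complex I factor (25.2 to 16.2 CPM, log2 fold change -0.64, adjusted p 2.29e-06), and Cox18, which inserts a complex IV subunit in the membrane (25.6 to 16.0 CPM, -0.68, adjusted p 9.94e-06). Cox17, a copper carrier for complex IV, rose from 7.89 to 12.0 CPM (0.60, adjusted p 0.00073).

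Genes for carriers of electrons and of nucleotides were also examined at 48 h. Cycs, cytochrome c, which carries electrons from complex III to complex IV, had 150.4, 158 and 139 CPM in control, 162, 168 and 161 CPM at 24 h and 75.8, 76.1 and 72.0 CPM at 48 h. Every 48 h library of Cycs lay below all others (log2 fold change -1.0, SE 0.06, adjusted p 1.14e-10). Of the 14 genes for cytochrome c and coenzyme Q synthesis, 7 (50%) fell, 2 (14.3%) rose and 5 did not pass. Slc25a5, an exchanger of ADP and ATP across the inner membrane, had 309.8, 319.5 and 289 CPM in control, 316, 315 and 328 CPM at 24 h and 126, 130.5 and 122 CPM at 48 h, again without overlap (log2 fold change -1.28, SE 0.05, adjusted p 1.4e-12). In its list of ADP, phosphate and porin transport, 6 of 7 genes (85.7%) fell and 0 rose.

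In the tricarboxylic acid cycle, which feeds complexes I and II, 10 of 14 genes (71.4%) fell at 48 h and 0 rose, where 24.4% of all tested genes fell, led by Idh3a (83.2 to 49.9 CPM, log2 fold change -0.73, adjusted p 1.28e-08) and Mdh2 (299.5 to 204 CPM, -0.55, adjusted p 2.6e-08). Of 16 genes for expression and replication of mitochondrial DNA 7 (43.8%) fell and 0 rose, among them Polrmt, the mitochondrial RNA polymerase (-0.30, adjusted p 0.000436), and Lrpprc, which stabilizes mitochondrial messages (-0.56, adjusted p 1.17e-06). Tfam, which packs mitochondrial DNA, fell by 0.16 (adjusted p 0.0357), a call that ended under 12 of the 18 alternatives and in every case that left out a library except control replicate 3 and 48 h replicate 2. Of 9 regulators of mitochondrial biogenesis 5 (55.6%) fell, including Nrf1 (-0.28, adjusted p 0.00101) and Esrra (-0.34, adjusted p 0.000649). Gabpb1 and Pprc1 were also among those that fell, Gabpb1 by more than Esrra, whereas Gabpb2 alone rose. Ppargc1a, the coactivator PGC-1 alpha, had 0 to 20 counts per library, and its 48 h value on the log2 scale was -0.02 (adjusted p 0.98), whereas the 24 h value was -2.06 (adjusted p 0.124).

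Genes tied to low oxygen went the other way. Of 7 tested genes of this list 6 rose at 48 h and 0 fell, and at 24 h 5 rose, where 22% and 3.25% of all tested genes rose. Higd1a, a respiratory chain protein induced in low oxygen, went from 111 to 234 CPM at 48 h (log2 fold change 1.08, adjusted p 1.57e-11). Pdk1, a kinase that inhibits pyruvate dehydrogenase, went from 88.9 through 119 to 179 CPM in control, at 24 h and at 48 h (0.42, adjusted p 0.000129 and 1.01, adjusted p 1.5e-10). Bnip3, a receptor for the removal of mitochondria, rose by 0.62 (adjusted p 8.37e-07) at 24 h, and the rise at 48 h was 1.01 (adjusted p 8.2e-11). The fifth call at 24 h, that of Mxi1, a repressor of Myc targets (0.28, adjusted p 0.0385), was lost without control replicate 2 (0.12), without 48 h replicate 1 (0.0576) and without each of the 24 h replicates (0.0751 to 0.157). Lonp1, a matrix protease, had log2 fold changes of 0.16 and 0.12 (adjusted p 0.0793 and 0.0744).

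**Figure D5:**
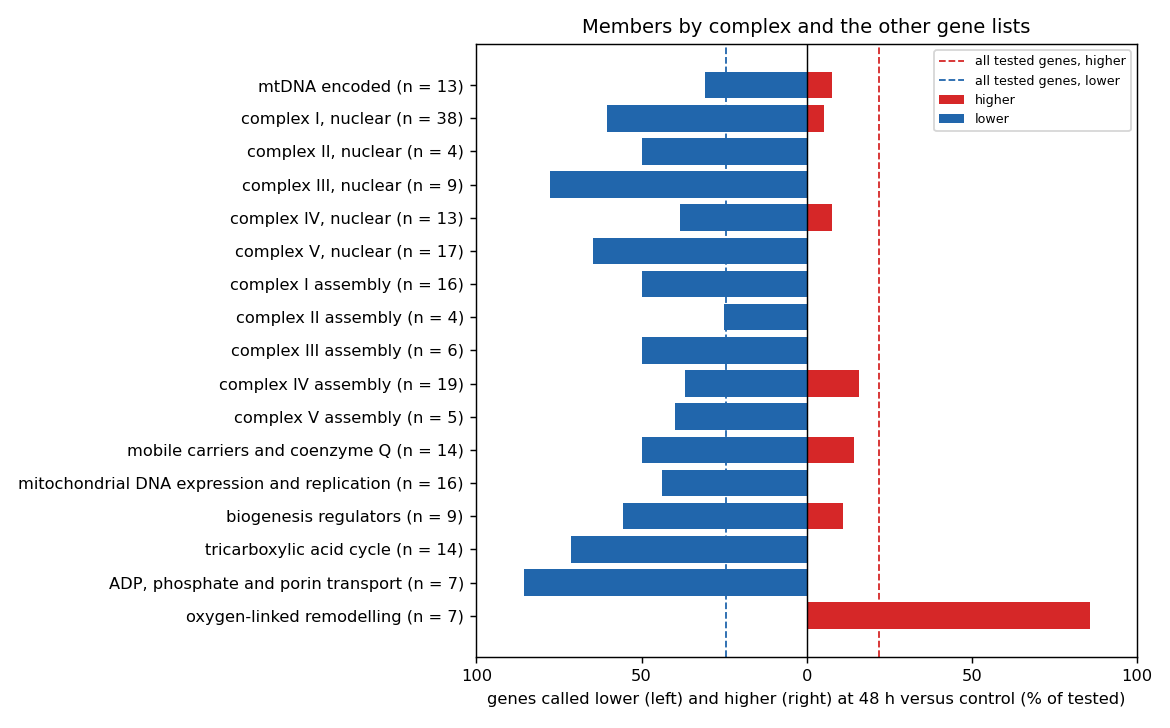
Bars show the percentage of tested genes called lower (left, blue) and higher (right, red) at 48 h against control for the members by complex and for the other lists, with the number tested in brackets, and dashed lines give the 24.4% and 22% of all tested genes. The lower share is at or above the dashed line in every list but that of genes tied to low oxygen, which has the longest red bar, at 85.7%.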

How the data were processed

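Raw counts per gene, which the authors deposited as 1 table, were used for 9 libraries. Per the labels, paired-end reads were aligned to the mouse genome (GRCm39) with HISAT2 2.0.5 and counted with featureCounts, whose version stands as 1.55.0-p3 in the protocol and 2.06 in the processing notes. The strand setting and the handling of reads with several matches are not given in the sources used here. Gene lengths are those of the deposited table.

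Genes passed edgeR's filterByExpr (minimum count 10), were scaled by TMM and fitted over all 3 groups with the quasi-likelihood test (edgeR 4.0.16, limma 3.58.1, R 4.3.3). Calls used a Benjamini-Hochberg adjusted p under 0.05, and the joint test asked whether any of the 3 groups differed. CPM were scaled by TMM. SD and SE cover the spread between libraries, and a floor of 3 counts covers counting error only. The fit was also run on simulated counts, in which far fewer genes changed than were called here at 48 h. That run therefore cannot show how well the calls in these data hold. Alternatives were DESeq2 1.42.0, other scalings, no filter, thinning to the smallest library, a removed length trend (loess), the replicate block, only the groups compared, and leaving out each library, 18 in all for single genes. Counts of calls were also taken at an adjusted p under 0.01 and with a log2 fold change of at least 0.5. Windows of 150 bases and the mitochondrial stretch were searched in the genome (GRCm39, BLAST 2.17.0, Python 3.11.15).

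The members and lists were chosen with earlier results of these data known. Named genes were all mitochondrially encoded genes, core subunits, isoform families, members removed by the filter and, per complex and comparison, up to 3 called nuclear members in each direction with the largest change at a mean of at least 5 CPM, and for the lists up to 3 called genes by the same measure, with Ppargc1a, Nrf1, Tfam, Polrmt and Cycs always named. Others named were chosen after their values were seen. The values of 1 member are not reported here.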

Additional observations from a re-analysis of the deposited data

Results flagged for a closer look

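The 24 h and 48 h changes share their control libraries, so their difference was tested as 48 h against 24 h with edgeR's quasi-likelihood test. It called 8 members higher and 42 lower. Differences on the log2 scale in complex I were -0.89 for Ndufa12, -0.39 for Ndufb6, -0.31 for Ndufs8, 0.34 for Ndufa13 and 0.49 for Ndufv3. The Ndufa12 call was lost without 24 h replicate 2 (adjusted p 0.0574) and with DESeq2 (0.0637). In complex II they were -0.28 for Sdhb and -0.21 for Sdhd, and the Sdhd call was lost without 24 h replicate 2 (adjusted p 0.065) and without 48 h replicate 3 (0.0773). In complex III they were -0.55 for Uqcrq, -0.54 for Cyc1 and -0.24 for Uqcrb. In complex IV they were -0.52 for Cox5a, -0.26 for Cox7b, -0.24 for Cox7a2, 0.15 for Cox4i1 and 0.81 for Cox7a2l. The Cox4i1 call was lost without 24 h replicate 1 (adjusted p 0.212) or 3 (0.0824) and without 48 h replicate 1 (0.21) or 2 (0.0873). In complex V they were -0.80 for Atp5g1, -0.42 for Atp5k and -0.39 for Atp5g3.

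Outside the protein genes, the mitochondrial ribosomal RNA gene mt-Rnr1 had 89.3, 86.3 and 118 CPM in control, 82.6, 77.0 and 79.2 CPM at 24 h and 135, 128 and 137 CPM at 48 h. All 48 h libraries lay above the others, a log2 change of 0.44 (SE 0.09, adjusted p 0.000323).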

How the results depend on the processing

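Stricter thresholds aside, no called result changed direction under any of the 18 alternatives, and of 33 named members called at 48 h, 27 kept their call in all 18. Those lost in at least 1 included mt-Nd5, Ndufa12, Ndufv1, mt-Cytb and Cox6b1. At 24 h, without the low-count filter 1 member was called higher and 2 lower, where 759 and 436 of 26232 genes were. At 48 h, 7 members were called higher with RLE size factors and also with total counts only, where 3173 and 3242 of 13812 tested genes were. With a log2 fold change of at least 0.5 also required, 2 members passed upward and 3 downward at 48 h. Over all 13812 genes in the fit, those numbers came to 1418 and 1059. Against 24 h, 2 members passed upward and 5 downward, beside 1639 and 1231 for the whole fit. At this size of change, the share passing was smaller for members than for all genes, upward and downward. Scaled by total counts only, the 48 h sum over the 24 h sum was 1.051 for nuclear complex IV (otherwise 1.023), 1.149 for mitochondrially encoded complex IV (1.119) and 0.8623 for nuclear complex V (0.8394). The cause was not tested. When single libraries were left out, the members called at 24 h were 0 to 1 higher and 0 to 8 lower. At 48 h they were 4 to 8 higher and 39 to 58 lower. Against 24 h they were 6 to 10 higher and 29 to 44 lower, and the joint test called 34 to 64. The lowest counts of 39, 29 and 34 came without 48 h replicate 3, where 2867, 3038 and 6144 of 14037 tested genes were called. Same-numbered libraries correlated between -0.049 and 0.077 in their deviations from the group means, and differently numbered ones between -0.097 and 0.095. No shared deviation by number was seen, but with 3 libraries per group these values cannot exclude that the samples were paired. With the replicate block, the calls were 0 higher and 1 lower at 24 h, 5 higher and 54 lower at 48 h, 8 higher and 42 lower against 24 h, and 57 in the joint test. Over all 13812 tested genes they were 538 and 420, 3088 and 3380, 3298 and 3512, and 7278. Genes with few counts, such as the 6 low mitochondrially encoded genes, are the least precise.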

Other observations

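The other mitochondrial ribosomal RNA gene, mt-Rnr2, had 265, 256 and 301 CPM in control, 270.1, 276 and 248 CPM at 24 h and 179.5, 172 and 169 CPM at 48 h, all below the other groups, and fell by 0.66 on the log2 scale (SE 0.06, adjusted p 6.54e-08, edgeR's quasi-likelihood test), whereas mt-Rnr1 rose. Per kilobase, mt-Rnr2 and mt-Rnr1 had 173.2 and 102.5 CPM in control, beside 6528 CPM for mt-Co1. The cause of these low levels, and its part in the opposite changes, was not tested. Among the annotated rows that copy mitochondrial genes in the nucleus, Gm29216 had 832 counts in control replicate 2 and 41 to 107 counts in the 8 other libraries. By the same test it was called lower at 24 h (log2 fold change -2.86, adjusted p 0.0255) and at 48 h (-2.43, adjusted p 0.00737). Control replicate 2 stood at 68.0 CPM, whereas control replicates 1 and 3 had 4.83 and 5.19 CPM, so that both calls rest on 1 library.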
